A study of Homo sapiens with 16 samples.

Results

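The genes described here were 42 genes of the RAS-MAPK pathway, its feedback inhibitors and its transcriptional outputs, out of 19974 protein-coding genes of RefSeq GRCh38 (chromosomes 1 to 22 and X). They were chosen by name, from pathway membership, with earlier results of these data known. By role they were 10 cascade genes (RAS, RAF, MEK and ERK, a scaffold and activators), 3 RAS GTPase-activating proteins, 10 dual-specificity phosphatases, 6 Sprouty and SPRED inhibitors, 7 ETS and SRF transcription factors, and 6 immediate-early and output genes. A gene was counted as marked in a peak list when the summit of at least 1 peak lay in its annotated body or within 10 kb of it.

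In this pathway a receptor tyrosine kinase recruits the exchange factor SOS1, which loads RAS with GTP, and RAS then activates the kinase chain from RAF through MEK to ERK. Active ERK phosphorylates ETS factors, which act with SRF on immediate-early genes such as EGR1 and IER2, and it induces its own brakes, among them DUSP phosphatases and Sprouty and SPRED proteins. Most melanomas carry an activating mutation in BRAF or NRAS, and A375 is a human melanoma line with an activating BRAF mutation. TGFB1 signals through a separate receptor, whose kinase activity sends the transcription factors SMAD2 and SMAD3 to the nucleus, where they bind chromatin together with partners that include the AP-1 family.

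Chromatin immunoprecipitation sequencing was carried out in A375 cells, starved for 2 h and then given recombinant human TGFB1 at 10 ng/mL, or a vehicle of 4 mM HCl and 1 mg/mL BSA, for another 2 h. Both groups were the same unmodified line and had the same starvation. The antibodies were against Smad2/3, H3K27ac (histone acetylation found at active regulatory DNA), MITF (the lineage factor of pigment cells), ATF3 and JUNB (both of the AP-1 superfamily). Each antibody had 1 peak list per treatment, 10 in all, so no difference between vehicle and TGFB1 has a replicate check, no p-value was computed, and the design text's technical triplicates could not be matched to separate lists.

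Titles carried 3 dates, not named further, with both treatments of an antibody on the same date. Smad2/3 and H3K27ac shared the earliest, MITF had the next, and ATF3 and JUNB shared the latest. Overlaps of Smad2/3 with MITF, ATF3 or JUNB thus join libraries of different dates, where date and antibody cannot be told apart. Peak numbers ran from 1247 (Smad2/3, vehicle) to 80990 (H3K27ac, TGFB1). Depth implied by the peaks' own values was close within the Smad2/3 (9.37 and 10.2 M reads), H3K27ac (21.5 and 23.2) and MITF pairs (7.39 and 7.40). The TGFB1 library was 1.40 times as deep for JUNB (34.1 and 47.7) and 4.42 times as deep for ATF3 (6.37 and 28.1). The shortest Smad2/3 peak was 311 bp in vehicle and 183 bp with TGFB1, so narrower peaks were listed with TGFB1 alone. This length also enters the implied depth. Of 8 melanocyte lineage genes, 6 had an H3K27ac summit in vehicle and 7 with TGFB1. The defining pigment gene DCT had none in either and MLANA none in vehicle, while 4 of the 8 had vehicle acetylation within 1 kb of a gene end, MITF and SOX10 among them. Of 10 markers of other cell types 7 and 6 had a summit in the window, but 1 had it within 1 kb of a gene end, and EPCAM, ALB and MYOD1 had none. MITF summits lay at 2 of the 8 lineage genes in vehicle (MITF and PMEL) and at 1 with TGFB1 (MITF). TYR, TYRP1, DCT and MLANA had none. Of the 10 other markers, 1 had an MITF summit in each treatment.

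With TGFB1, Smad2/3 was called at 22 of the 42 members, against 28.2% of all protein-coding genes. In vehicle it was called at 1 member, DUSP6, against 1.77% of all genes. Genes of the same length as each member (within 0.8 times in either direction, 398 to 2379 genes per member) gave shares that sum to 11.89 genes of 42 for the TGFB1 list, and to 14.56 when only those with vehicle H3K27ac within 1 kb of a gene end were used. The members' count was thus above the share in genes of like length with acetylation at an end, which 37 of the 42 members themselves had. The amount of acetylation was not matched, and members held 6.17 vehicle H3K27ac summits on average, where all genes held 3.56. A second group of 43 pathway genes had 20 with a Smad2/3 summit in the TGFB1 list (46.5%) and 1 in the vehicle list. It too was chosen with earlier results known, and it was not matched for length. Of all genes with vehicle acetylation at an end, 35.2% had a Smad2/3 summit with TGFB1. When the TGFB1 list was shortened to its 1247 strongest peaks, the length of the vehicle list, 4 members held a summit (SPRY4, DUSP14, ETV1 and PHLDA1), against 3.6% of all genes.

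**Figure D1:**
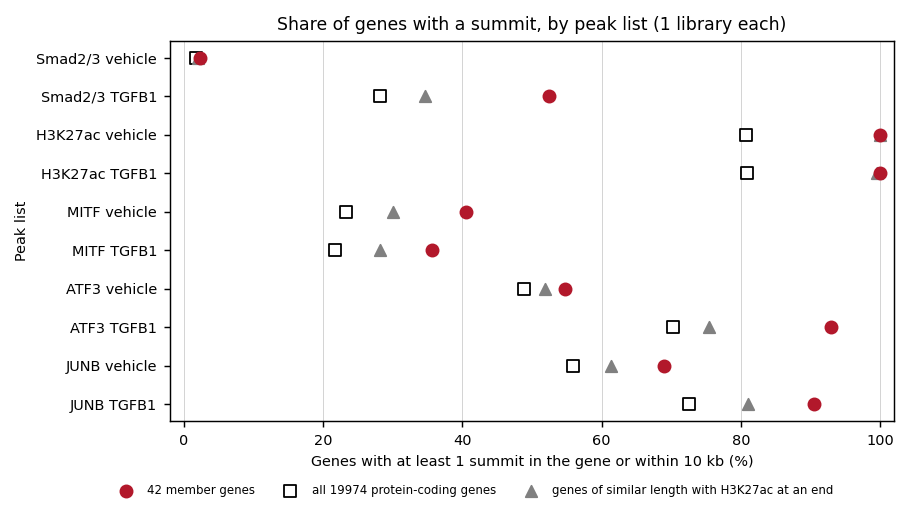
Percentage of genes with at least 1 peak summit in the gene or within 10 kb (horizontal axis), for each of the 10 peak lists (vertical axis, 1 library each). Red points are the 42 members, open squares all 19974 protein-coding genes, and grey triangles the mean share in genes of similar length with acetylation at an end. The Smad2/3 list with TGFB1 holds 52.4% of the members against 28.2% of all genes, and in the vehicle list both lie near 2%.

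In the remaining lists the members were also marked more often than the average gene, and by less when length and acetylation at a gene end were taken into account. With summits in gene bodies alone this turned for ATF3 in vehicle, with 13 members marked (of 42) and 32.4% of all genes. H3K27ac marked all 42 members in both treatments, where all genes reached 80.7% in vehicle and 80.9% with TGFB1. Similar acetylated genes hold a vehicle H3K27ac summit by their definition, so they give no comparison for that list. MITF marked 17 members in vehicle (23.3% of all genes, similar acetylated genes 12.66 of 42) and 15 with TGFB1 (21.7%, 11.83). ATF3 marked 23 in vehicle, where all genes gave 48.8% and similar acetylated genes 21.79 of 42. With TGFB1 it marked 39, where all genes gave 70.2% and similar acetylated genes 31.69. JUNB marked 29 in vehicle (55.9%, 25.80) and 38 with TGFB1 (72.5%, 34.02). At equal list lengths the TGFB1 lists marked 33 members for ATF3 (63.3% of all genes) and 32 for JUNB (53.8%).

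**Figure D2:**
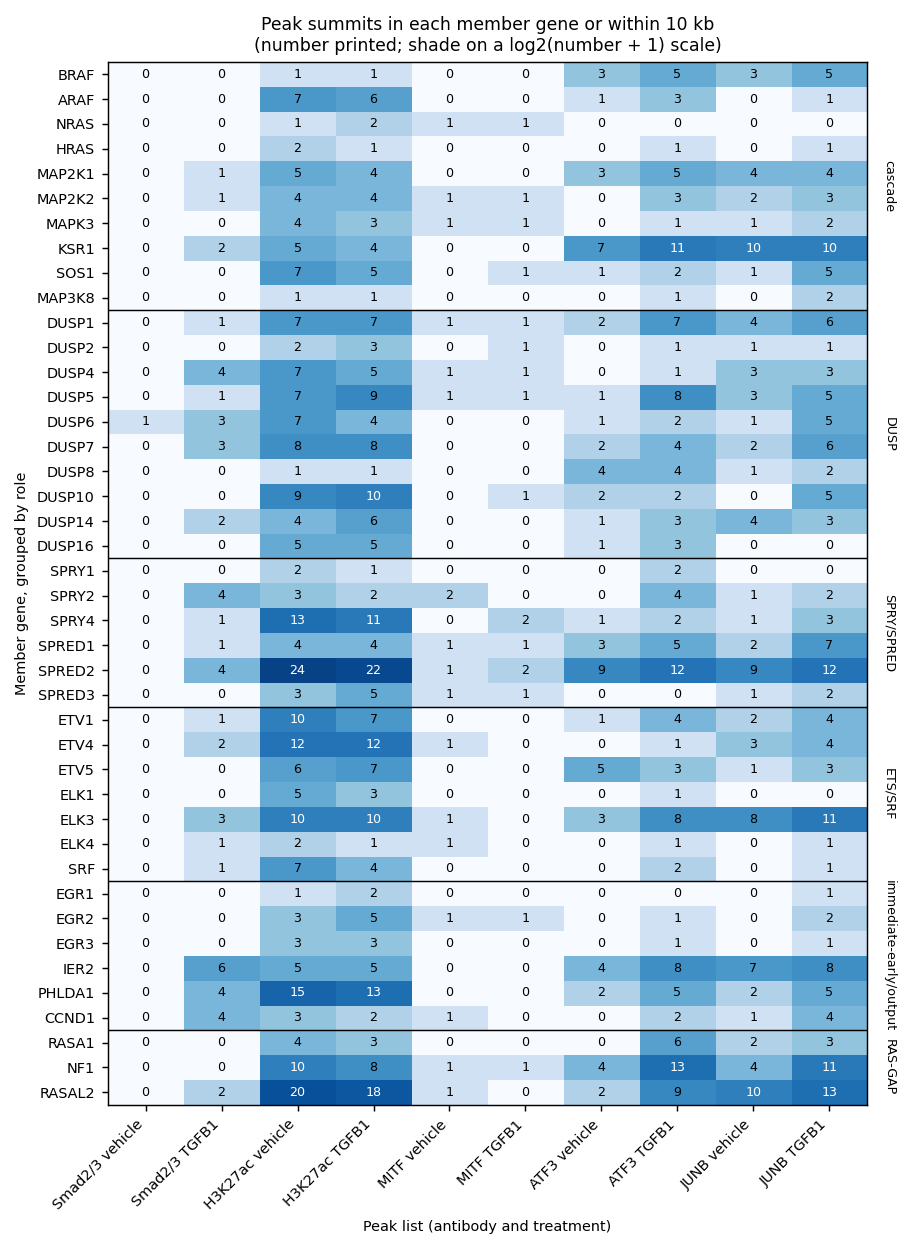
Number of peak summits in each of the 42 member genes or within 10 kb (rows, grouped by role) in each of the 10 peak lists (columns); the number is printed and the shade follows log2(number + 1). The Smad2/3 vehicle column holds a single 1, at DUSP6, while the TGFB1 column reaches 6 at IER2, and the H3K27ac columns have no 0.

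Sequences upstream of the members' starts are shown for the promoters at which summits of several antibodies met. RefSeq start entries (GRCh38.p14, the 250 bases before each listed start) were matched for 36 of the 42 members, with 59 starts in all. DUSP4, DUSP5, ETV4, ETV5, EGR3 and CCND1 had no entry. Motifs were searched on both strands, and none of those spelled here lies whole within another. A match describes these letters and is not a measured binding site. They were the CRE (TGACGTCA), bound by ATF and CREB factors, the AP-1 site, and the E-box CACGTG. The M-box was searched as CATGTG, printed from the other strand in SPRY2. SMAD motifs were searched in the forms GTCTAGAC and GGCGCC, and SRF by its CArG box. DUSP1, whose start had peaks of all 5 antibodies, SPRY2, where Smad2/3 and ATF3 were called with TGFB1 alone, and MAPK3, with MITF in both treatments, are printed 5′ to 3′ along the gene's strand, which is the minus strand for each. Capitals mark the GGCGCC, the CRE and the E-box in DUSP1 in that order, the M-box in SPRY2 and the E-box in MAPK3.
DUSP1 promoter, chr5:172771196-172771445: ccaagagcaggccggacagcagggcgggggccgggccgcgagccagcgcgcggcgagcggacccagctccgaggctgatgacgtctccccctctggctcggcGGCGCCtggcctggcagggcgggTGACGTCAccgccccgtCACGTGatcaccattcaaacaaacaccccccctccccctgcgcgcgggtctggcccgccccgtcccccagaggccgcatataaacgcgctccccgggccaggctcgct
SPRY2 promoter, chr13:80341127-80341376: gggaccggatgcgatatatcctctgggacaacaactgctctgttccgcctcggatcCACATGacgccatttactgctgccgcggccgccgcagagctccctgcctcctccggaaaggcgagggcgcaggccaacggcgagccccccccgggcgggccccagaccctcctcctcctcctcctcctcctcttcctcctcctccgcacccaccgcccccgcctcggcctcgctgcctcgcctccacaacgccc
MAPK3 promoter, chr16:30123221-30123470: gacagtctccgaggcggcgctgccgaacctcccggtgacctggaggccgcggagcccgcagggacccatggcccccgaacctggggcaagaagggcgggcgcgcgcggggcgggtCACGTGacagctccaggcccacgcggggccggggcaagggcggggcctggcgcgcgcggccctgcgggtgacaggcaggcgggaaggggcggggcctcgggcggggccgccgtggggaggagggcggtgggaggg

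The CRE occurred in 2.02% of all 22132 listed starts and in 3 of the members' 59, upstream of DUSP1, DUSP8 and NF1. All 3 of these windows held an ATF3 summit in both treatments, and of all starts with an ATF3 summit in the TGFB1 list 12.4% held a CRE. In DUSP1 the CRE began 125 bases before the start, and the ATF3 summits lay 1 bp from it in vehicle and 12 bp with TGFB1. NF1, the GTPase-activating protein neurofibromin, had its CRE 166 bases before the start, 4 and 2 bp from the ATF3 summits and 1 bp from the JUNB summit of the TGFB1 list. DUSP8, a phosphatase directed at stress kinases, had 2 of them, 118 and 74 bases before a start inside the gene, and the first was 13 bp from the ATF3 summit in vehicle and 8 bp with TGFB1. Capitals mark the CRE in these 30-base stretches (DUSP8 on the minus strand, NF1 on the plus strand).
DUSP8 first CRE, chr11:1572371-1572400: ccgggctccgcTGACGTCAcctgcccccga
DUSP8 second CRE, chr11:1572327-1572356: ttggctgcaggTGACGTCAggggctttttt
NF1 CRE, chr17:31094800-31094829: gaggagttagaTGACGTCAcctccaggagg

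The AP-1 site, TGACTCA on one strand or the other, occurred in 3.45% of all listed starts. It was in 3 of the members' 59, upstream of KSR1, MAP3K8 and SPRED3. Each of these windows held a JUNB summit with TGFB1, and KSR1 held one in vehicle too. Over all starts with a JUNB summit, 21.1% had the site in the vehicle list and 12.6% in the TGFB1 list. KSR1, the scaffold that holds RAF, MEK and ERK together, had the site 17 and 13 bp from its JUNB summits. At MAP3K8, the kinase TPL2, the summit was 10 bp away, and at SPRED3 it was 73 bp away. All 3 starts lie inside the annotated gene, and all are on the plus strand, with the site in capitals.
KSR1 AP-1 site, chr17:27471849-27471878: ggccgcgcagcTGACTCAtctctgtactga
MAP3K8 AP-1 site, chr10:30434122-30434151: ctcagacgccgTGAGTCAggggcagagcag
SPRED3 AP-1 site, chr19:38389720-38389749: ccgttgctgggTGACTCAgtgagctttgca

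The E-box CACGTG occurred in 7.37% of all starts and in 6 of the members' 59 (DUSP1, DUSP2, EGR2, ETV1, MAPK3 and NRAS). MITF summits fell in 3 of these windows, NRAS and MAPK3 in both treatments and DUSP1 with TGFB1. Of all starts with an MITF summit, 32.3% in vehicle and 32.0% with TGFB1 held CACGTG. The distance from motif to summit was 53 and 56 bp at NRAS, 93 and 53 bp at MAPK3, and 173 and 5 bp at DUSP1. NRAS encodes the RAS protein most often mutated in melanoma, and its stretch is given on the minus strand with the E-box in capitals.
NRAS E-box, chr1:114716811-114716840: ggttcggaggccCACGTGgccggggcgggg
The motif GTCTAGAC was in 0.21% of all starts and in no member. GGCGCC was in 20.7% of all starts and in 17 of the members' 59, upstream of 16 members. Of these members, DUSP14, MAP2K2 and SPRY2 were among the 5 with a Smad2/3 summit in a listed upstream window. At SPRY2 the summit was at a start other than the one with the motif. ELK3 and IER2, the remaining members of the 5, held neither SMAD motif. The M-box was in 7.6% of starts and in 5 of the members' 59 (EGR2, ETV1, IER2, SPRY1 and SPRY2). Of these, SPRY2 had an MITF summit in the same window, in vehicle. The CArG box was in 1.18% of starts and in 3 of the members' 59, upstream of EGR1, EGR2 and SRF. None of these had a Smad2/3 summit in that window.

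By role and within 10 kb, Smad2/3 with TGFB1 exceeded the level of similar acetylated genes among feedback inhibitors, ETS and SRF factors and output genes. In the cascade itself it did not. It marked 6 of 10 phosphatases (3.04 from similar acetylated genes), 4 of 6 Sprouty and SPRED genes (2.08), 5 of 7 ETS and SRF genes (2.30) and 3 of 6 output genes (1.74). In the cascade it marked 3 of 10 (3.68), and among the GTPase-activating proteins 1 of 3 (1.72). The 20 members without a Smad2/3 summit in either list were BRAF, ARAF, NRAS, HRAS, MAPK3, SOS1 and MAP3K8 of the cascade, RASA1 and NF1, DUSP2, DUSP8, DUSP10 and DUSP16, SPRY1 and SPRED3, ETV5 and ELK1, and EGR1, EGR2 and EGR3. The groups are small, and 1 gene more or less moves a role by 1 in 3 to 1 in 10. The contrast also rests on the 10 kb window. With 50 kb, BRAF held 1 Smad2/3 summit with TGFB1, ARAF 6, HRAS 2 and MAPK3 3, while NRAS, SOS1 and MAP3K8 still held 0. EGR3 then held 5, and EGR2, SPRY1, ELK1 and NF1 held 1 each. The rest of the 20 still held 0. No share over all genes was computed at 50 kb.

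All 52 Smad2/3 summits at members in the TGFB1 list belonged to peaks that overlapped no vehicle peak. In gene windows as a whole 3.1% of TGFB1 peaks overlapped one. The vehicle list held no peak shorter than 311 bp, while the TGFB1 list reached down to 183 bp. The part of this in the result was not tested. TGFB1-only Smad2/3 peaks marked 22 members (27.4% of all genes), and a vehicle-only peak marked 1 (0.396%). That peak lay in DUSP6, on chromosome 12 from 89351446 to 89352114 (fold enrichment 4.74, rank 1001 of 1247). Fold enrichment here is the authors' ratio of reads at the summit to the local background. It ranks peaks only within its own list, and values printed for both treatments are not compared in size.

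The members' Smad2/3 peaks were of ordinary strength. Their median fold enrichment was 5.15, against 5.57 for all peaks of that list in gene windows, and 3 of 52 (5.8%) were in the strongest 10% of the list by -log10 p, against 8.8%. They lay on chromatin that was already acetylated in vehicle more often than the list did: 49 of 52 (94.2%) overlapped a vehicle H3K27ac peak, against 78.4% of the list's peaks in gene windows, and 48 (92.3%) overlapped one with TGFB1, against 83.7%. Overlap with JUNB in the TGFB1 list was 34 of 52 (65.4%, against 60.1%), with ATF3 24 (46.2%, 42.4%) and with MITF 3 (5.8%, 11.1%), while 15 (28.8%, 36.4%) overlapped neither JUNB nor ATF3. The overlap with JUNB was 17 peaks when a reciprocal overlap of 50% was asked for. Summits within 1 kb of a listed start made up 18 of 52 (34.6%, 28.7%), and 13 lay in the window of another protein-coding gene as well. DUSP4, DUSP5, ETV4 and CCND1 had no listed start, so their summits could count as near a start only through another gene. The same holds for other genes without an entry, and for the shares near starts of the other antibodies.

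**Figure D3:**
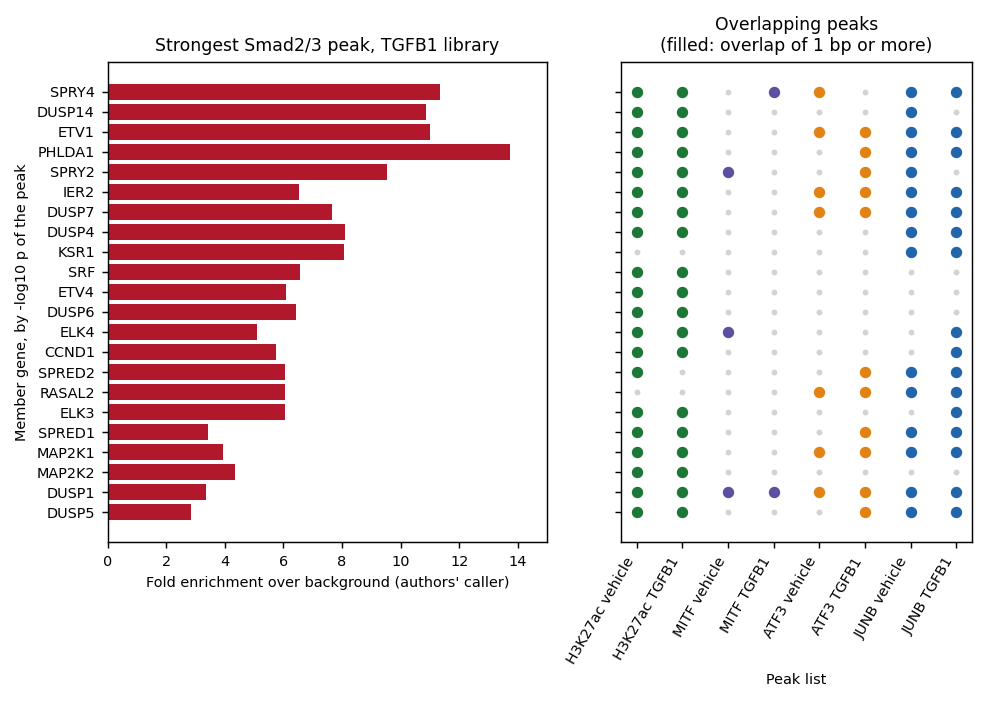
Left, fold enrichment over background of the strongest Smad2/3 peak of each of the 22 marked members in the TGFB1 library (bars from 0, ordered by -log10 p). Right, filled points mark which of the other 8 peak lists overlap that peak by at least 1 bp. PHLDA1 has the highest bar at 13.7, and KSR1 and RASAL2 are the members whose strongest peak overlaps no H3K27ac peak.

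Among Sprouty and SPRED genes, which restrain the pathway upstream of RAF, SPRY4 had the member peak of highest -log10 p (34.2, rank 807 of 11406, fold enrichment 11.3). It lay 0.741 kb outside the gene (chromosome 5, 142325234 to 142325929) on H3K27ac, ATF3 and JUNB peaks of the vehicle libraries, and overlapped 1 of the 2 MITF peaks that SPRY4 had in the TGFB1 list alone. SPRY4 held 0 and 1 Smad2/3 summits (vehicle, then TGFB1, as in all pairs of counts that follow), 13 and 11 for H3K27ac, 0 and 2 for MITF, 1 and 2 for ATF3, and 1 and 3 for JUNB. SPRY2, a Sprouty inhibitor of receptor signalling, held 0 and 4 for Smad2/3, 3 and 2 for H3K27ac, 2 and 0 for MITF, 0 and 4 for ATF3, and 1 and 2 for JUNB. MITF was thus called at SPRY2 in vehicle alone and at SPRY4 with TGFB1 alone, in peaks of low rank (3897 and 4355 of 5695, and 4577 and 4589 of 5037).

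The strongest of the 4 SPRY2 peaks covered the start printed above, on chromosome 13 from 80341015 to 80341574 (fold enrichment 9.54), with its summit 0.066 kb before it. The vehicle peaks of MITF and JUNB at that start were not called with TGFB1, and an ATF3 peak was. Of 748 acetylated genes as long as SPRY2, 1.34% had 4 or more Smad2/3 summits. SPRED2, which binds neurofibromin and brings it to RAS, also held 4 (highest fold enrichment 6.06). It held 24 and 22 for H3K27ac, 1 and 2 for MITF, 9 and 12 for ATF3, and 9 and 12 for JUNB. It is a long gene (125 kb), and 3.79% of acetylated genes of its length had 4 or more Smad2/3 summits. Of these 4 SPRED2 sites, 2 overlapped an H3K27ac peak in the vehicle list and none in the TGFB1 list. SPRED1 held 0 and 1 for Smad2/3, 0.576 kb before its start with a fold enrichment of 3.41.

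Among the dual-specificity phosphatases, DUSP14, an atypical member of the family, had the strongest Smad2/3 peak (fold enrichment 10.9, rank 839, chromosome 17 from 37489625 to 37490382). Its summit lay in the 250 bases before a listed start, on H3K27ac of both treatments and on the vehicle JUNB peak. DUSP14 held 0 and 2 for Smad2/3, 4 and 6 for H3K27ac, 1 and 3 for ATF3, and 4 and 3 for JUNB, with no MITF, and was the only member with fewer JUNB summits in the TGFB1 list. DUSP6, the cytoplasmic phosphatase specific for ERK, held 1 and 3 for Smad2/3, 7 and 4 for H3K27ac, 0 and 0 for MITF, 1 and 2 for ATF3, and 1 and 5 for JUNB. Its vehicle peak and its 3 TGFB1 peaks (highest fold enrichment 6.41) did not overlap, so DUSP6 was marked in both treatments at different places. The vehicle mark is a single peak of low rank (1001 of 1247).

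DUSP7, the close relative of DUSP6, held 0 and 3 for Smad2/3, 8 and 8 for H3K27ac, 2 and 4 for ATF3, and 2 and 6 for JUNB. Its strongest Smad2/3 peak (fold enrichment 7.64, chromosome 3 from 52046575 to 52046900) lay 2.18 kb beyond the gene under the strongest JUNB peak at any member in the TGFB1 list (25.5, rank 260 of 64407). A further Smad2/3 peak 6.21 kb upstream, on chromosome 3 from 52062623 to 52062908, was the only one of the 52 that overlapped an H3K27ac peak in the TGFB1 list and none in the vehicle list. It ran from -6.337 to -6.052 kb, between vehicle H3K27ac peaks at -6.688 to -6.403 kb and -5.967 to -5.655 kb. The TGFB1 acetylation peaks, at -7.016 to -6.311 kb and -6.099 to -5.587 kb, overlapped only its edges. DUSP4, an inducible nuclear phosphatase, held 0 and 4 for Smad2/3 (highest fold enrichment 8.09), 7 and 5 for H3K27ac, 1 and 1 for MITF, 0 and 1 for ATF3, and 3 and 3 for JUNB. Of 1471 acetylated genes of its length, 0.68% had 4 or more Smad2/3 summits.

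DUSP1, an immediate-early nuclear phosphatase, held 0 and 1 for Smad2/3, 7 and 7 for H3K27ac, 1 and 1 for MITF, 2 and 7 for ATF3, and 4 and 6 for JUNB. Its Smad2/3 peak was among the weakest of the list (fold enrichment 3.37, rank 10742), 0.039 kb inside the start. It was also the only strongest Smad2/3 peak of a member that overlapped a peak in all 8 lists of the other antibodies. DUSP5, a nuclear phosphatase for ERK, had the lowest fold enrichment of the 52 (2.84, rank 11120), with 7 and 9 for H3K27ac, 1 and 1 for MITF, 1 and 8 for ATF3, and 3 and 5 for JUNB. DUSP8, DUSP10 and DUSP16, which act mainly on JNK and p38, had no Smad2/3 summit, nor had DUSP2.

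**Figure D4:**
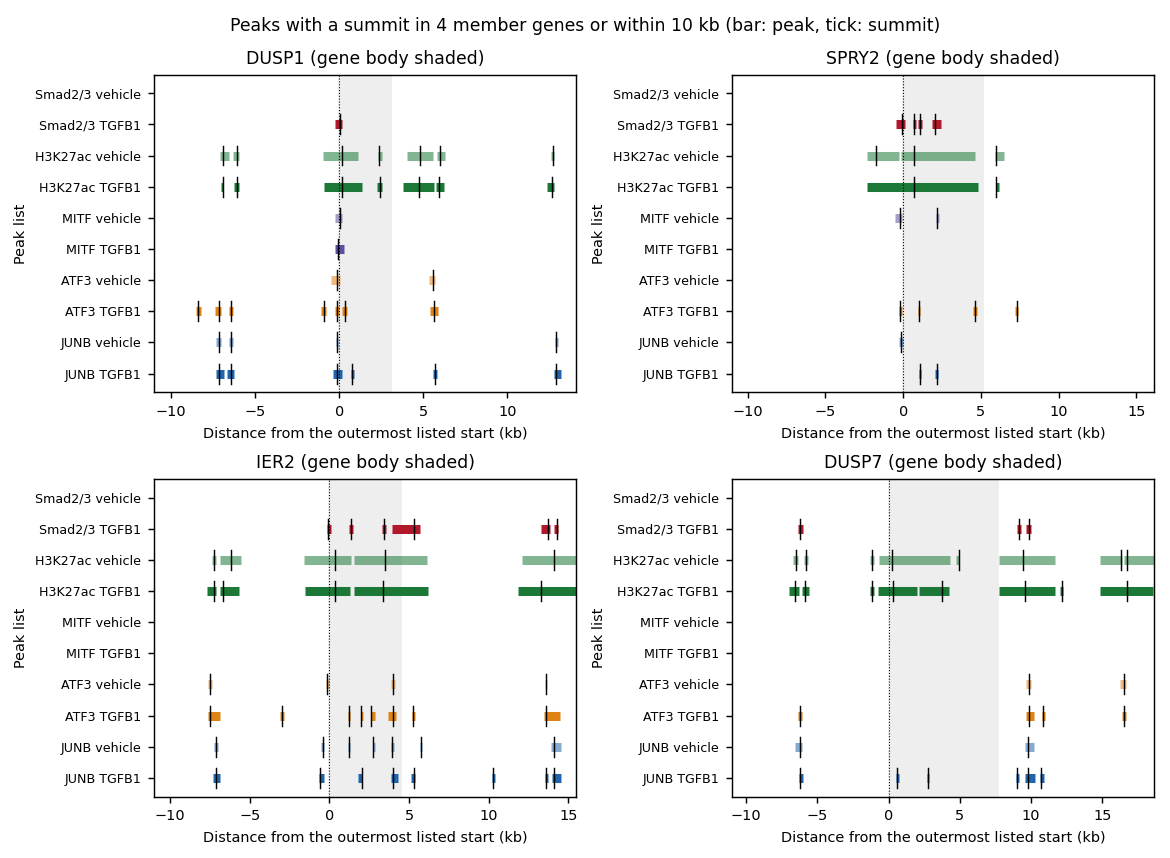
Peaks with a summit in DUSP1, SPRY2, IER2 or DUSP7 or within 10 kb, by distance from the outermost listed start in kb along the gene (horizontal axis) and by list (vertical axis); bars are peaks, ticks summits, and the shaded area is the gene. Smad2/3 bars appear in the TGFB1 row alone: in SPRY2 and at its start, in and around IER2, at the start of DUSP1 and outside DUSP7.

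Among the immediate-early and output genes, IER2, an early-induced nuclear protein, had more Smad2/3 summits than any other member. It held 0 and 6 for Smad2/3, 5 and 5 for H3K27ac, 0 and 0 for MITF, 4 and 8 for ATF3, and 7 and 8 for JUNB. Of 672 acetylated genes of its length, 0.15% (a single gene) had as many Smad2/3 summits, and none had as many ATF3 or JUNB summits with TGFB1. The strongest of its Smad2/3 peaks was broad, 1753 bp on chromosome 19 from 13154338 to 13156090 (fold enrichment 6.53). Of the 6 peaks, 4 were also in the window of STX10.

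PHLDA1, a gene induced by growth factors, held 0 and 4 for Smad2/3, 15 and 13 for H3K27ac, 0 and 0 for MITF, and 2 and 5 for both ATF3 and JUNB. The one that lay 4.34 kb outside the gene (chromosome 12, 76020747 to 76021342) had the highest Smad2/3 fold enrichment at a member (13.7) and lay under its strongest JUNB peak (28.7). CCND1, the cyclin that carries the pathway into the cell cycle, held 0 and 4 for Smad2/3 (highest fold enrichment 5.74), 3 and 2 for H3K27ac, 1 and 0 for MITF, 0 and 2 for ATF3, and 1 and 4 for JUNB. Of 1346 acetylated genes of its length, 0.45% had 4 or more Smad2/3 summits. EGR1, EGR2 and EGR3, zinc-finger factors induced by ERK through ELK and SRF, had none.

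Of the ETS and SRF factors, ETV1, a PEA3 family factor, had the strongest Smad2/3 peak (fold enrichment 11.0, rank 938), on chromosome 7 from 13920091 to 13920617. It lay deep inside the gene, on H3K27ac, ATF3 and JUNB peaks of both treatments. ETV1 held 0 and 1 for Smad2/3, 10 and 7 for H3K27ac, 1 and 4 for ATF3, and 2 and 4 for JUNB. ETV4, its relative, had 2 Smad2/3 summits (highest fold enrichment 6.07), ELK3, a ternary complex factor, 3 (6.06), ELK4 1 (5.08) and SRF, the partner of these factors, 1 (6.56, 0.15 kb after its start). ETV5 and ELK1 had none.

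In the cascade, KSR1 had 2 Smad2/3 summits, MAP2K1 1 and MAP2K2 1, the last 2 genes encoding the MEK kinases. The MAP2K1 peak (fold enrichment 3.92) lay 6.16 kb outside the gene, also in the windows of SNAPC5, RPL4 and ZWILCH. With gene bodies alone, or a −log10 q of at least 5, MAP2K1 and MAP2K2 each held 0. The MAP2K2 peak (fold enrichment 4.34) lay 0.157 kb before the start, inside the acetylation peak that had rank 5 of 80990 in the H3K27ac list with TGFB1 (fold enrichment 56.3). The stronger KSR1 peak (8.07) and the stronger of 2 peaks at RASAL2, a RAS GTPase-activating protein (6.06), lay deep inside these long genes, off H3K27ac in both treatments and on JUNB peaks in both.

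Acetylation at the members was nearly the same in the treatments, with slightly fewer summits after TGFB1. Members held 259 vehicle and 237 TGFB1 summits of H3K27ac, a ratio of 0.92, where all genes gave 1.00. The number was higher with TGFB1 at 9 members (22.8% of all genes) and lower at 21 (24.6%). Among genes with at least 4 summits in vehicle, 16 of 28 members had fewer with TGFB1, where 47.1% of 6801 such genes had, and 4 of 28 had more, where 29.1% had. TGFB1-only peaks marked 16 members (31.5%), and vehicle-only peaks marked 23 (30.6%).

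The largest losses were of 3 summits, at DUSP6 (7 and 4), ETV1 (10 and 7) and SRF (7 and 4). The largest gains were of 2, at DUSP14 (4 and 6), DUSP5 (7 and 9), EGR2 (3 and 5) and SPRED3 (3 and 5). Peaks that join lower the number of summits without lowering the acetylated length, so the length under peaks was measured as well. It was 281.1 kb in vehicle and 276.4 kb with TGFB1 over the members, larger at 19 and smaller at 23, while the whole list grew from 57.74 to 62.34 Mb. At DUSP6 the acetylated length hardly differed (8.75 and 8.87 kb) in spite of 3 fewer summits. EGR2 stood out with 2.79 kb in vehicle and 5.24 kb with TGFB1, and ETV4 had the longest stretch, 22.3 and 19.8 kb.

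**Figure D5:**
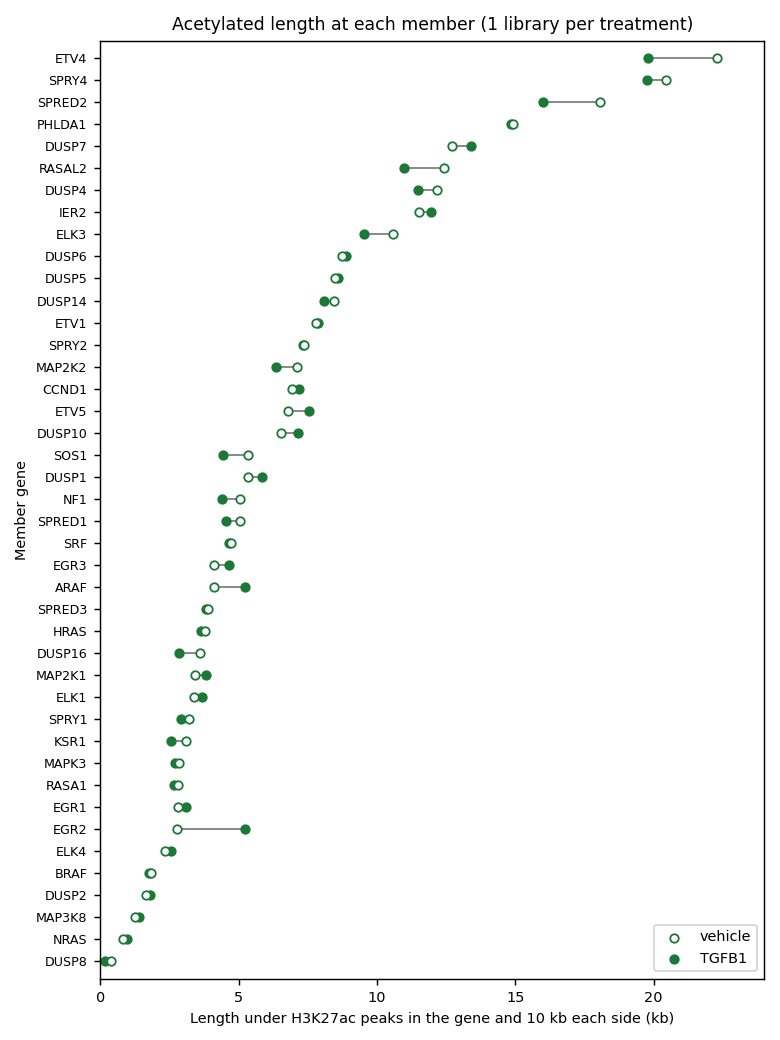
Length in kb under H3K27ac peaks in each member gene and 10 kb to each side (horizontal axis), in vehicle (open) and TGFB1 (filled), for the 42 members ordered by the vehicle value, 1 library per treatment. The points of most members lie close together; EGR2 has 2.79 and 5.24 kb, and ETV4 22.3 and 19.8 kb.

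MITF was called at 40.5% of the members in vehicle and 35.7% with TGFB1, mostly with a single summit each. It held 18 vehicle and 17 TGFB1 summits at members, a ratio of 0.94 beside 0.92 over all genes, and none of these peaks was in the strongest 10% of its list. MITF had no summit in either list at 21 members, among them BRAF, ARAF, HRAS, MAP2K1 and KSR1 of the cascade, DUSP6, DUSP7, DUSP8, DUSP14 and DUSP16, and SPRY1, and also ETV1, ETV5, ELK1, SRF, EGR1, EGR3, IER2, PHLDA1, RASA1 and MAP3K8. TGFB1-only peaks marked 6 members (10.7% of all genes) and vehicle-only peaks 8 (12.8%). Of the ETS and SRF factors 3 of 7 were marked in vehicle (ETV4, ELK3 and ELK4) and 0 of 7 with TGFB1, where similar acetylated genes gave 2.04 and 1.93. Of the phosphatases 3 and 5 of 10 were marked, where such genes gave 2.94 and 2.72.

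The strongest MITF peak at a member in vehicle was that of MAPK3, which encodes the kinase ERK1, with a fold enrichment of 12.2 and rank 822 of 5695. It lay 0.225 kb before the start, on chromosome 16 from 30123310 to 30123560, and the TGFB1 list had a peak at the same place (8.17). NRAS had a peak at its start in both lists, with fold enrichments of 10.8 and 11.2. With TGFB1 the strongest was at SPRED1, 1.88 kb into the gene on chromosome 15 from 38254599 to 38254888 (fold enrichment 14.1, rank 527 of 5037). In the vehicle list that place had a fold enrichment of 4.86 and rank 4142 of 5695. The values implied 14 reads at the summit over a background of 2.09 in vehicle. With TGFB1 they implied 25 over 0.85, so the background differed as well. MAP2K2 (7.41) and DUSP5 (6.85) completed the strongest 4 in vehicle, and MAPK3 and DUSP10 (7.40, a TGFB1-only peak) those with TGFB1.

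ATF3 was called at more places in nearly all members with TGFB1. Vehicle summits at members numbered 63 and TGFB1 summits 157, a ratio of 2.49 beside 2.18 over all genes, in a pair of libraries whose implied depths differed by 4.42 times. The part of this depth in the result was not tested. Of all 49563 vehicle ATF3 peaks, 28.9% overlapped a peak of the deeper TGFB1 list, and 11.0% lay on vehicle H3K27ac. Most of the vehicle list was thus not found again, which limits its counts, the rises from it and its vehicle-only peaks. The count was higher with TGFB1 at 36 members (54.2% of all genes) and lower at 1, ETV5 (10.5%). TGFB1-only peaks marked 37 members (63.6%) and vehicle-only peaks 11 (31.5%). NRAS, SPRED3 and EGR1 had no ATF3 summit in either list.

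The vehicle ATF3 peaks at members were found again with TGFB1 more often than those of other genes. Of 63 peaks 48 (76.2%) overlapped a TGFB1 peak, against 47.8% of the list's peaks in gene windows. They were also nearer to starts (25.4% within 1 kb, against 9.1%) and more often on vehicle H3K27ac (55.6%, against 23.6%). With TGFB1 the shares were 19.7% against 10.9% near starts, and 54.8% against 32.5% on H3K27ac of the same treatment. Members held 6.17 H3K27ac summits on average in vehicle, where all genes held 3.56.

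The largest gains in ATF3 summits were at NF1 (4 and 13), DUSP5 (1 and 8), RASAL2 (2 and 9) and RASA1 (0 and 6), so all 3 GTPase-activating proteins were among the 4. These 3 genes are long (124 to 385 kb), and of acetylated genes as long as NF1 10.1% had at least 13 ATF3 summits with TGFB1. DUSP1 is short (3.1 kb) and held 2 and 7, the latter a number that 0.22% of 454 acetylated genes of its length reached. The strongest ATF3 peak at a member with TGFB1 was in ETV5, a PEA3 family factor, on chromosome 3 from 186103852 to 186104412 (fold enrichment 85.6, rank 60 of 62997). That place was also the strongest at ETV5 in vehicle (23.8), and JUNB and H3K27ac were called there in both treatments.

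SPRED2 had the next strongest (81.2, rank 64), 4.03 kb before its start on chromosome 2 from 65436269 to 65436977, at a place that Smad2/3 joined with TGFB1. In vehicle SPRED2 was the strongest member (42.5), at a further site where Smad2/3 was also called with TGFB1. NF1 (67.1, 223 kb into the gene) and IER2 (43.3, 3.97 kb after its start, under a Smad2/3 peak) followed with TGFB1, and IER2 (26.1), KSR1 (25.5) and DUSP8 (27.3) in vehicle.

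JUNB summits at members numbered 94 without and 167 with the ligand, a ratio of 1.78 beside 1.76 over all genes, and the TGFB1 library was the deeper by 1.40 times, whose part was not tested. The count was higher with TGFB1 at 33 members (53.0% of all genes) and lower at 1 (9.01%). TGFB1-only peaks marked 36 members (62.3%) and vehicle-only peaks 14 (28.9%). NRAS, DUSP16, SPRY1 and ELK1 had none in either list. Of the members' JUNB peaks with TGFB1, 65.9% lay on H3K27ac of the same treatment, against 42.3% of the list's peaks in gene windows, and 25.1% lay within 1 kb of a start, against 14.4%.

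The largest gain in JUNB summits was at NF1 (4 and 11), followed by DUSP10 (0 and 5), SPRED1 (2 and 7) and DUSP6 (1 and 5). After DUSP7, the strongest JUNB peaks with TGFB1 were at RASA1, the p120 GTPase-activating protein (33.7, rank 482, chromosome 5 from 87300800 to 87301139), KSR1 (25.3) and PHLDA1. RASA1 had its strongest vehicle peak at the same place (18.9), 32.0 kb after a start and off H3K27ac in both treatments. In vehicle KSR1 (21.3), RASAL2 (26.1) and ETV1 (21.9) ranked above it. The RASAL2 place, on chromosome 1 from 178238732 to 178239123, is the one that Smad2/3 joined with TGFB1.

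Within roles, AP-1 factors reached nearly every member with TGFB1. ATF3 marked 10 of 10 phosphatases (8 in vehicle, and 7.04 from similar acetylated genes with TGFB1, in this order throughout), 9 of 10 cascade genes (5, 7.93), 7 of 7 ETS and SRF factors (3, 5.47), 5 of 6 Sprouty and SPRED genes (3, 4.49), 5 of 6 output genes (2, 3.86) and 3 of 3 GTPase-activating proteins (2, 2.90). JUNB marked 9 of 10 phosphatases (8 in vehicle, 7.73), 9 of 10 cascade genes (6, 8.34), 6 of 7 ETS and SRF factors (4, 5.73), 5 of 6 Sprouty and SPRED genes (5, 4.87), 6 of 6 output genes (3, 4.48) and 3 of 3 GTPase-activating proteins (3, 2.87). The other 43 pathway genes, not matched for length, had 38 marked by ATF3 and 40 by JUNB with TGFB1.

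Of the cascade genes, BRAF held 1 and 1 for H3K27ac, 3 and 5 for both ATF3 and JUNB, and 0 for Smad2/3 and MITF in both treatments. NRAS held 1 and 2 for H3K27ac and 1 and 1 for MITF, and 0 in the 6 lists of Smad2/3, ATF3 and JUNB. HRAS held 2 and 1 for H3K27ac and 0 and 1 for both ATF3 and JUNB. ARAF held 7 and 6 for H3K27ac, 1 and 3 for ATF3, and 0 and 1 for JUNB. MAPK3 held 4 and 3 for H3K27ac, 1 and 1 for MITF, 0 and 1 for ATF3, and 1 and 2 for JUNB. SOS1 held 7 and 5 for H3K27ac, 0 and 1 for MITF, 1 and 2 for ATF3, and 1 and 5 for JUNB. KSR1 held 5 and 4 for H3K27ac, 7 and 11 for ATF3, and 10 and 10 for JUNB, and of 748 acetylated genes of its length 5.08% had at least 11 ATF3 summits with TGFB1. MAP2K1 held 5 and 4 for H3K27ac, 3 and 5 for ATF3, and 4 and 4 for JUNB, and MAP2K2 held 4 and 4, 0 and 3, and 2 and 3 for the same antibodies. At BRAF the ATF3 and JUNB counts with TGFB1 equalled the median of acetylated genes of its length (5), and at ARAF 15.9% of such genes had at least 3 ATF3 summits with TGFB1.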

How the data were processed

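The series holds 16 samples: 10 immunoprecipitated libraries, each with a deposited peak list, and 6 inputs, which were not analysed here. The submitters' processing notes name Bowtie, MACS2 (2.0) and GRCh38. The control used for each list and the handling of duplicates are not given in the sources used here. The deposited fold enrichment is the ratio, computed by the authors' peak caller, of reads at the summit to local background. The −log10 p-value and −log10 q-value of each peak are deposited by the authors as well. Each deposited list holds the peaks of a single library, so treatments were compared by summit counts and by overlap.

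The summit is the deposited start plus the deposited offset. Summits were counted in RefSeq gene bodies extended by 10 kb, for 19974 protein-coding genes, and an overlap of 1 bp was enough for peaks to count as overlapping. Similar genes lay within 0.8 times a member's length in either direction, the member itself left out, and their shares with a summit were summed over the 42 members. Implied depth was solved from fold enrichment and −log10 p, and is an estimate. It assumed a genome of 2.7 Gb and took the shortest peak of each list as the fragment length. Counting, overlap and depth recovery were checked on simulated data.

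The members, roles, further pathway genes and markers were chosen with earlier results of these data known. Single peaks are described for each member with a Smad2/3 peak (its strongest by −log10 p), for the 4 members with the strongest peaks in each other list, and for the 4 largest rises and falls per antibody. Further peaks and members were described after their values had been seen. Python 3.11.15, pandas 2.3.3, numpy 2.4.6, scipy 1.17.1 and matplotlib 3.10.9 were used. Alternatives were the gene body alone, a 50 kb window, a −log10 q of at least 5, equal list lengths, reciprocal overlap of 50%, a 500 bp margin, a wider length range, and acetylated genes as the comparison.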

Additional observations from a re-analysis of the deposited data

How the results depend on the processing

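Each list is 1 library, so the spread between replicates is unknown, and list length and depth limit what is called as present or absent. No paired analysis was possible because each group held 1 library. Of 86 alternatives to the counts over all members, 66 stayed within 1.5 times the reported count, and of 126 for single members 91 did. With a 50 kb window, Smad2/3 marked 2 members in vehicle (1 reported). At equal list lengths Smad2/3 marked 4 with TGFB1 (22). With gene bodies alone, MITF marked 11 in vehicle (12.1% of all genes) and 8 with TGFB1 (11.0%), ATF3 marked 13 in vehicle (32.4% of all genes, which is above the members' share), and TGFB1-only peaks marked 24 for ATF3 and 8 for H3K27ac. With a −log10 q of at least 5, MITF marked 10 in vehicle, with 3 by TGFB1-only and 4 by vehicle-only peaks. At that threshold H3K27ac had 7 TGFB1-only and 11 vehicle-only members, vehicle-only peaks marked 2 for ATF3 and 7 for JUNB, and 17 of the 31 Smad2/3 peaks left overlapped JUNB (34 of 52). With a reciprocal overlap of 50%, TGFB1-only H3K27ac marked 29 members, vehicle-only ATF3 marked 18, and 17 of 52 Smad2/3 peaks overlapped JUNB. With a 500 bp margin, H3K27ac marked 6 members by TGFB1-only and 13 by vehicle-only peaks. The causes were not tested. Counting intervals listed for several summits once changed nothing, because each interval was listed a single time.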
